A study of Mus musculus with 2 samples.

Results

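The genes of coagulation and complement proteins were examined in liver sections of a pair of mice, 1 of each genotype. Members were found in the files by gene symbol, and the rule uses no measured value of them. Of its 37 genes, 36 were found among the 19465 genes of the files, and C1s1 was not analysed here. All 36 had at least 50 unique molecular identifiers (UMIs, each standing for 1 captured molecule) over both sections. All 36 entered the comparisons between the sections and along the lobule.

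The AEG-1-WT mouse, with the genotype label WT, carried the unaltered Mtdh gene, which encodes AEG-1. In the AEG-1-C75S mouse, labelled C75S, a knock-in made by CRISPR/Cas9 replaced the cysteine of AEG-1 that is palmitoylated with serine. Both were untreated females of 8 weeks from matings between heterozygotes, and the background strain is not given in the sources used here. Each genotype is 1 animal and 1 section of 5 μm from fixed, paraffin-embedded liver. The mutation is present in every cell of the animal, so the knock-in does not separate hepatocytes from other cells.

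Hepatocytes make most plasma proteins of coagulation and complement and release them into the sinusoids. Coagulation runs through the contact and intrinsic proteases and the tissue factor pathway to thrombin, which cleaves fibrinogen into fibrin, while plasma inhibitors restrain the proteases and plasmin dissolves the clot. Complement starts from the lectin, classical or alternative pathway, converges on C3 and ends in the membrane attack complex, which the terminal components assemble. Several of these genes, fibrinogen among them, belong to the acute phase response, in which cytokines act on hepatocytes through STAT and C/EBP factors.

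Gene expression was measured on spots by probe pairs that are ligated on the RNA and counted as UMIs. A spot covers several cells, so fewer cells of a type and less RNA per cell cannot be told apart. Levels are given as CPM, the UMIs of a gene divided by all UMIs of the same spots and scaled to counts per 1000000, and levels of different genes were not set against each other, since the yield of the probes is unknown. A total of 42246988 UMIs on 2309 spots was used for the WT section and of 41674347 UMIs on 2163 spots for the C75S section, at medians of 16830 and 18808 per spot. The sections shared 1896 spot barcodes, which mark positions of the array and not cells. Mtdh was read at 74.4 CPM in the WT section and 73.3 CPM in the C75S section, and this level does not check the labels, since the knock-in replaces a codon and does not remove the transcript. The hepatocyte markers Alb, Apoa1, Ttr and Tat were abundant in both sections, at sums of 168049 and 172641 CPM. The sums hide moves in opposite directions, with log2 ratios of C75S over WT of 0.50 for Apoa1 and -1.03 for Tat. Those of Alb and Ttr were -0.07 and 0.19. Markers of other cells differed between the sections, with Kupffer cell markers summing to 824 CPM in WT and 1102 CPM in C75S, stellate cell markers to 580 and 723 CPM, cholangiocyte markers to 129 and 96.6 CPM, portal connective tissue markers to 176 and 89.6 CPM, vascular smooth muscle markers to 30.0 and 8.83 CPM and red blood cell markers to 627 and 416 CPM. The stellate cell marker Lrat went against its list, with a log2 ratio of C75S over WT of -0.48, and sinusoidal endothelium markers summed to 481 and 500 CPM.

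The sequences just upstream of the genes that the results turn on are shown first. RefSeq promoters of build GRCm38.p6, the assembly also called mm10, were found for 28 of the 36 genes. The 250 bases before an annotated start are given 5′ to 3′ on the strand of the gene. They lie at chr3:83025903-83026152 (plus strand) for Fga, chr3:83049864-83050113 (minus strand) for Fgb, chr3:83007474-83007723 (plus strand) for Fgg, chr15:6445096-6445345 (plus strand) for C9, chr14:41151206-41151455 (plus strand) for Mbl1 and chr19:30232678-30232927 (plus strand) for Mbl2. The chains of fibrinogen are shown because they were the genes highest in C75S over WT, and C9, Mbl1 and Mbl2 because they stood at the ends of the lobule or differed from each other. In Fga, Fgb and C9, capitals mark matches to the motifs described after the sequences, and in Mbl1 and Mbl2 they mark the longest run of letters that both share.
Fga: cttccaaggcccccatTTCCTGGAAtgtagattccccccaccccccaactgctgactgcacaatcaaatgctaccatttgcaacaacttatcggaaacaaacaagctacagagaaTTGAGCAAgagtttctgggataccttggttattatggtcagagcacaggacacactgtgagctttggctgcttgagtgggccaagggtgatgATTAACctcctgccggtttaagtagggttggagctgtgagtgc
Fgb: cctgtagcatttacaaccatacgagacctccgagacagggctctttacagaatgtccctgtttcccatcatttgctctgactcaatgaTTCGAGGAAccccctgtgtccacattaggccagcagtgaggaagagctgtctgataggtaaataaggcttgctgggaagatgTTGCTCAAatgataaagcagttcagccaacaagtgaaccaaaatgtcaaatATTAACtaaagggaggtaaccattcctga
Fgg: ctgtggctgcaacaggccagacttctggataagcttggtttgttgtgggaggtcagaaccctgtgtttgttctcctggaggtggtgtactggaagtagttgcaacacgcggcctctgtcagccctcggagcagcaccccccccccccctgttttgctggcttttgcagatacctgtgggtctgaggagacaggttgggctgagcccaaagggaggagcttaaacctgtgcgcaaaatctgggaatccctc
C9: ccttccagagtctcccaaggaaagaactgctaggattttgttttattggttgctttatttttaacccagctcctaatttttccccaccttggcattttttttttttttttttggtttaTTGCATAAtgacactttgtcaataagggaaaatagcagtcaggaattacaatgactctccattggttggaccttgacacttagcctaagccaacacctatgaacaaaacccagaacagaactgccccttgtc
Mbl1: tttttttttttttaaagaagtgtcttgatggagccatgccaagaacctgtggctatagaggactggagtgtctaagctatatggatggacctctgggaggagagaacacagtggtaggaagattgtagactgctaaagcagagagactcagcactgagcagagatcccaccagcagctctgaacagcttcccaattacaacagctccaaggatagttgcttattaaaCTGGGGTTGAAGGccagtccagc
Mbl2: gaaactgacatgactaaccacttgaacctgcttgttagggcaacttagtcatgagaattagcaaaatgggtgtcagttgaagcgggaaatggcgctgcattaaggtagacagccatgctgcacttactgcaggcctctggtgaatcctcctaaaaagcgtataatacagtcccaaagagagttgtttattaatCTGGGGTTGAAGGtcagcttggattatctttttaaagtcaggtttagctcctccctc

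Motifs were searched on both strands in 300 bases, 250 before and 50 after the start. TTGCNNAA, a core of C/EBP sites, was found in 9 of 29 promoters of the set (31.0%), against 10.8% of all 32851 promoters. GTTAAT, the core of HNF1 sites, was found in 8 (27.6%, against 7.10%), and TTCNNNGAA, a core of STAT sites, in 6 (20.7%, against 8.30%). The TATA box letters TATAAA, on the plus strand alone, were found in 2 (6.90%, against 8.32%), those of C3 and Hc. Fga and Fgb each held 1 match to the C/EBP, the HNF1 and the STAT letters. For Fga these lay at -135 to -128, -43 to -38 and -234 to -226 from the start, and for Fgb at -80 to -73, -29 to -24 and -162 to -154. Fgg held none of them, and C9 held a C/EBP match at -132 to -125. Mbl1 and Mbl2, on different chromosomes, shared a run of 13 letters, at -23 to -11 in Mbl1 and -57 to -45 in Mbl2. A match is a description of these letters and does not show that a factor binds.

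The genotypes were compared gene by gene to ask which members stood higher or lower in the C75S section. The genes of fibrinogen were higher, the gene of factor VII and 3 genes of the membrane attack complex were lower, and most others lay close to equal. Of the 36 genes, 3 (8.33%) were at least 1.2-fold higher in C75S, where 9.66% of 12004 genes with at least 50 UMIs were. Another 4 (11.1%) were at least 1.2-fold lower, where 18.7% of all genes were, and 29 lay between. Neither share was above that of all genes. At 1.5-fold no member was past the limit in either direction, against 2.29% of all genes higher and 5.2% lower. With TMM factors in place of UMI totals Fga passed that limit, at a log2 ratio of 0.60. The median log2 ratio of C75S over WT was -0.04 for the members and -0.05 for all genes tested, of which the middle 90% lay between -0.60 and 0.40. For 8 members with ratios close to 0 the sign turned with TMM factors, so their narrow counting intervals do not fix a direction. F5, F9, Plg, Proc, Serpinf2, C4b, Hc and Masp1 turned higher there. F12, F13b, Klkb1, Serpinc1, Cpb2, C3 and C8g turned lower where the shares of single spots were summed with equal weight. Those sums were not divided by spot number, 2309 in WT and 2163 in C75S. That lowers every ratio of this setting. No run with the division was made, so whether weighting alone turns any of these genes was not tested. Among 3283 genes with at least 3000 UMIs, as all members had, 7.74% were 1.2-fold higher and 12.5% lower, and 1.68% and 2.13% at 1.5-fold. With 1 section per genotype there is no replicate and no test, and the 95% intervals cover counting error only, so the ratios compare these sections and not the genotypes.

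**Figure D1:**
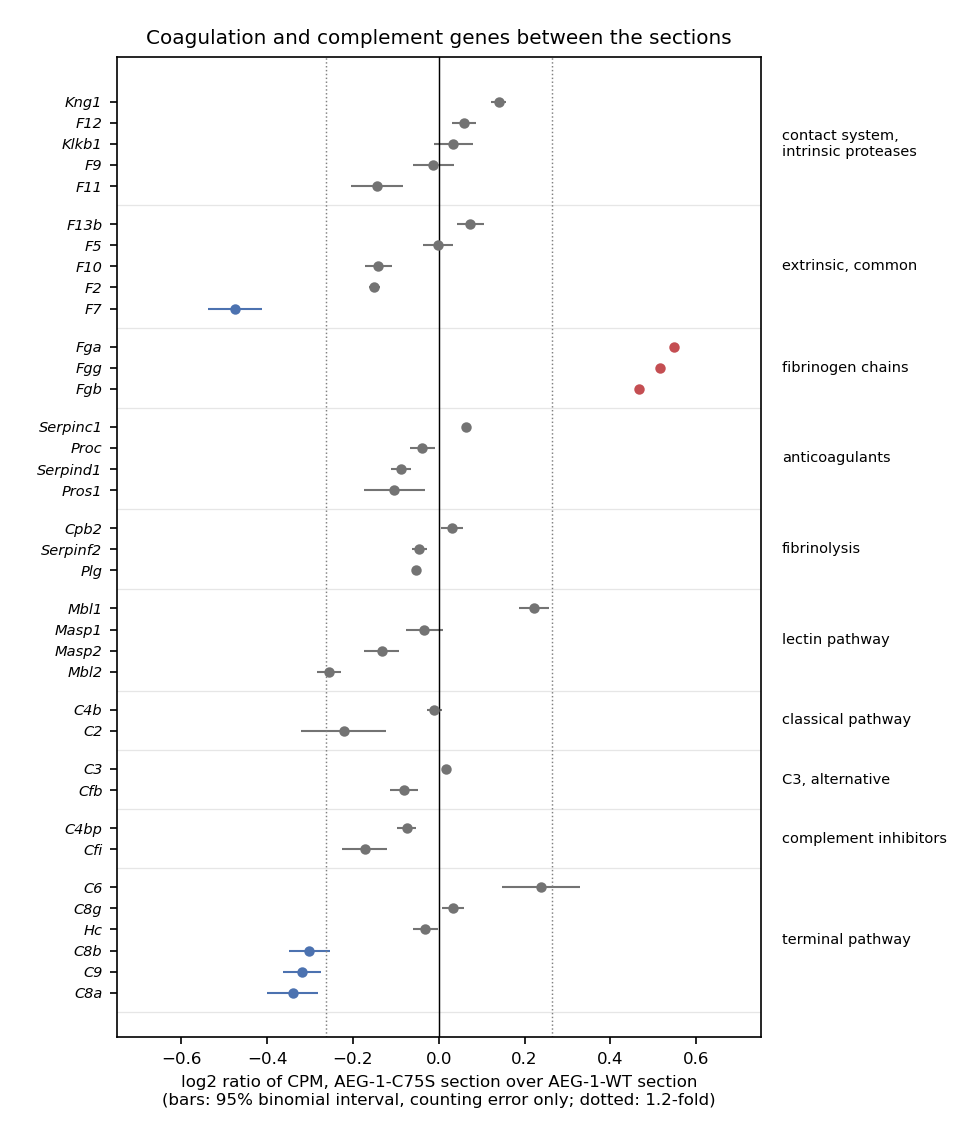
The log2 ratio of CPM in the C75S section over the WT section is plotted for the 36 genes, grouped by role, with 95% binomial intervals for counting error only and dotted lines at 1.2-fold. Fga, Fgb and Fgg stand to the right at 0.47 to 0.55, F7, C8a, C8b and C9 to the left at -0.30 to -0.47, and the other 29 lie between the dotted lines.

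Fibrinogen, the precursor of fibrin, is assembled from chains encoded by Fga, Fgb and Fgg, which lie side by side at chr3:83007724-83049863. Fga had 319622 UMIs in WT and 460866 in C75S, or 7566 and 11059 CPM, a log2 ratio of 0.55 (0.54 to 0.55, 1.46-fold). Fgb, the chain with the most UMIs, had 8475 and 11709 CPM, a log2 ratio of 0.47 (0.46 to 0.47, 1.38-fold). Fgg had 4256 and 6087 CPM, a log2 ratio of 0.52 (0.51 to 0.52, 1.43-fold). All of them were past 1.2-fold in each of the 5 bins of spots along the lobule that are described further on, with log2 ratios of 0.49 to 0.57 for Fga, 0.42 to 0.50 for Fgb and 0.46 to 0.55 for Fgg. The chains kept nearly the same proportions, with Fga at 37.3% of their summed UMIs in WT and 38.3% in C75S, Fgb at 41.8% and 40.6% and Fgg at 21.0% and 21.1%.

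Summed, the chains made up 2.03% of all UMIs in WT and 2.89% in C75S, while the other 33 members made up 3.16% and 3.13%. Over single spots, the summed level had a median of 20433 CPM in WT, with 5th and 95th percentiles of 16775 and 23546 CPM. In C75S the median was 28949 CPM, and the percentiles were 23534 and 32959 CPM. The middle ranges of the sections barely met, and 98.7% of C75S spots lay above the WT median. Spots of a section come from 1 animal and are not replicates. Without the 10% of spots richest in cholangiocyte and portal connective tissue markers, the log2 ratios were 0.54, 0.46 and 0.51 for Fga, Fgb and Fgg. In spots matched on total UMIs they were 0.55, 0.46 and 0.53.

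**Figure D2:**
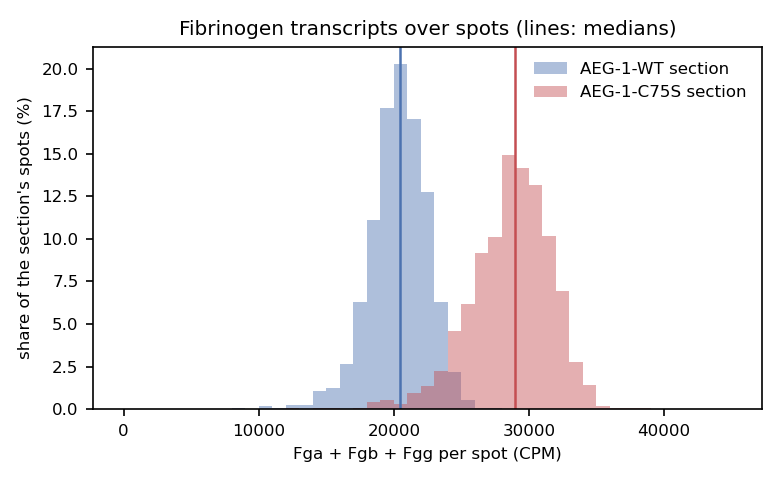
The share of spots of each section is plotted by the summed CPM of Fga, Fgb and Fgg per spot, with vertical lines at the medians of 20433 CPM in WT and 28949 CPM in C75S. The distributions overlap only at their edges.

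Among the proteases of the extrinsic and common pathway, F7 differed most. Factor VII, which starts coagulation with tissue factor, is encoded at chr8:13025506-13035809. F7 had 5021 UMIs in WT and 3564 in C75S, or 119 and 85.5 CPM, a log2 ratio of -0.47 (-0.54 to -0.41). It was past 1.2-fold in all 5 bins, at -0.52 to -0.41. F10, the gene of the protease that factor VII activates, lies 1.499 kb away on the same chromosome and had 407 and 369 CPM (-0.14, -0.17 to -0.11). F2, which encodes prothrombin, had 2759 and 2487 CPM (-0.15, -0.16 to -0.14), and its ratio stayed at -0.16 to -0.13 in every bin. F13b, a carrier subunit of the enzyme that cross-links fibrin, had 402 and 423 CPM (0.07, 0.04 to 0.10). F5, the cofactor of factor X, was level at 318 CPM in both sections, with an interval of -0.04 to 0.03.

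None of the 5 contact and intrinsic genes was past 1.2-fold. Kng1, which encodes kininogen, was the highest of them at 1082 and 1192 CPM in WT and C75S, a log2 ratio of 0.14 (0.12 to 0.16). F11, the gene of factor XI, was the lowest at 112 and 101 CPM (-0.14, -0.20 to -0.08). F12, the protease that opens the contact pathway, had a log2 ratio of 0.06 (0.03 to 0.09). The intervals of Klkb1, which encodes plasma kallikrein, and of F9, the gene of factor IX on the X chromosome, reached 0, at -0.01 to 0.08 and -0.06 to 0.04.

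The inhibitors and the genes of fibrinolysis also stayed within 1.2-fold. Serpinc1, which encodes antithrombin, had 5423 CPM in WT and 5671 CPM in C75S (log2 ratio 0.06, 0.06 to 0.07). Serpind1, the gene of heparin cofactor II, had 737 and 693 CPM (-0.09, -0.11 to -0.07). Proc, which encodes protein C, and Pros1, its cofactor protein S, had log2 ratios of -0.04 (-0.07 to -0.01) and -0.10 (-0.18 to -0.03). Plg, which encodes plasminogen, had 3531 and 3406 CPM (-0.05, -0.06 to -0.04). Serpinf2, the gene of the plasmin inhibitor, and Cpb2, which encodes an inhibitor of fibrinolysis activated by thrombin, had log2 ratios of -0.05 and 0.03.

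In the terminal pathway of complement, 3 of 6 genes were at least 1.2-fold lower in C75S and none was higher. Of all genes 18.7% were at least 1.2-fold lower and 9.66% higher, and of those with at least 3000 UMIs 12.5% and 7.74%. The count of these 6 genes was not tested against those shares. C8a and C8b, which encode the alpha and beta chains of C8 and lie 11.131 kb apart on chromosome 4, were lower by like amounts. C8a had 126 CPM in WT and 99.7 CPM in C75S, a log2 ratio of -0.34 (-0.40 to -0.28). C8b had 183 and 149 CPM, a log2 ratio of -0.30 (-0.35 to -0.25). C9, whose protein forms the wall of the pore, had 219 and 176 CPM, a log2 ratio of -0.32 (-0.36 to -0.27). C8a was past 1.2-fold in 5 of 5 bins, C8b in 4 and C9 in 3, and all 3 genes were lower in every bin. C8g, which encodes the gamma chain and lies on chromosome 2, did not share this and had 555 and 567 CPM (0.03, 0.01 to 0.06). C6 had 43.1 and 50.8 CPM, a log2 ratio of 0.24 (0.15 to 0.33), and Hc, the gene of C5, had 453 and 443 CPM (-0.03). With TMM factors between the section sums C9 and C8b fell short of 1.2-fold, at -0.26 and -0.25, and C6 and Mbl1 passed it. Then 5 genes counted as higher and 2, F7 and C8a, as lower. C8b also fell short with centering on the median gene and with totals without the 20 most abundant genes. The share of all genes past 1.2-fold was not computed with these scalings, so the counts have no such share beside them.

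The mannose-binding lectin genes of the set stood on opposite sides of equal, both within 1.2-fold. Mbl1 and Mbl2 encode the mannose-binding lectins A and C, which recognise sugars on microbial surfaces. Mbl1 had 282 CPM in WT and 330 CPM in C75S, a log2 ratio of 0.22 (0.19 to 0.26), and was higher in all 5 bins. Mbl2 had 523 and 438 CPM, a log2 ratio of -0.26 (-0.28 to -0.23), and was lower in all 5 bins. Their proteases had log2 ratios of -0.03 for Masp1 (-0.08 to 0.01) and -0.13 for Masp2 (-0.17 to -0.09).

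C3, the component on which all pathways converge, was nearly level at 7855 and 7941 CPM (0.02, 0.01 to 0.02). Cfb, which encodes the protease of the alternative pathway, had 379 and 358 CPM (-0.08, -0.11 to -0.05). C2, its counterpart in the classical pathway, lies next to it on chromosome 17 with a gap of 0.088 kb and had 42.6 and 36.5 CPM, a log2 ratio of -0.22 (-0.32 to -0.12). C2 was the gene with the fewest UMIs, 3323 over both sections. C4b was level at 1432 and 1422 CPM (-0.03 to 0.01), and its reads could include those of near-identical C4 copies if the probes do not separate them. The inhibitors Cfi, a protease that cuts C3b, and C4bp, its cofactor, had log2 ratios of -0.17 (-0.22 to -0.12) and -0.08 (-0.10 to -0.05).

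To follow the set along the liver lobule, spots of each section were ordered by the ratio of Cyp2f2, high near the portal vein, to Cyp2e1, high near the central vein, with 1 UMI added to each, and cut into 5 bins of equal spot number. Cyp2f2 ran from 370 CPM in the most pericentral bin to 2445 CPM in the most periportal one in WT, and Cyp2e1 from 13168 to 2153 CPM, which the ordering fixes. In C75S Cyp2f2 ran from 569 to 2775 CPM and Cyp2e1 from 12014 to 2296 CPM. The bins were cut within each section, so bins of the same number need not hold the same place in the lobule. UMIs were summed per section and bin, and the most periportal bin was tested against the most pericentral one with edgeR's quasi-likelihood test, with the section as a block. Of the 36 genes, 20 (55.6%) were called higher periportally at an adjusted p under 0.05, where 9.61% of all 12004 genes were. Another 4 (11.1%) were called higher pericentrally, where 9.6% of all genes were, and 12 were not called. The median log2 difference was 0.18 for the members and 0.01 for all genes. Among genes with at least 3000 UMIs, 15.3% were called periportal and 22.5% pericentral.

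These calls depend on the scaling. Alb made up 9.56% of UMIs in the most pericentral bin and 15.7% in the most periportal one in WT, and 9.22% and 14.6% in C75S. With library totals in place of TMM, log2 differences were lower by 0.10 (median over genes), the median of all genes was -0.10, and 16 members were called periportal and 9 pericentral, where 6.77% and 18.4% of all genes were. Of genes with at least 3000 UMIs, 9.59% were then called periportal and 41.8% pericentral, against 44.4% and 25.0% of the members. The bins come from 1 animal of each genotype, so the p-values rest on how far the sections and bins differ and not on a spread between animals.

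C9 had by far the steepest gradient of the set. It had 145, 175, 248, 256 and 270 CPM from the most pericentral to the most periportal bin in WT, and 105, 148, 190, 204 and 233 CPM in C75S. It climbed at each step in both sections. The log2 difference between the outer bins was 1.11 (SE 0.050, edgeR adjusted p = 3.7e-42), or 2.17-fold. Without the spots richest in cholangiocyte and portal connective tissue markers it was 1.17, and with bins ordered by other zone genes it was 1.18. In CPM the gradient was 0.90 (0.79 to 1.0) in WT and 1.14 (1.03 to 1.26) in C75S, and a difference between the gradients could not be tested with 1 section each.

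The other terminal pathway genes, C6 apart, were called periportal too. Hc, the gene of C5, climbed from 380 to 510 CPM in WT and from 385 to 469 CPM in C75S, a log2 difference of 0.46 (edgeR adjusted p = 8.4e-19). C8a, C8b and C8g were called periportal at 0.31, 0.17 and 0.19, while C6 was not called at 0.01. The call of C8b was lost with library totals and with DESeq2.

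Mbl1 had the opposite gradient. It had 352, 322, 269, 241 and 230 CPM from the most pericentral to the most periportal bin in WT, and 406, 361, 325, 290 and 265 CPM in C75S. The level dropped at each step in both sections, and the log2 difference was -0.51 (SE 0.043, edgeR adjusted p = 3.2e-20). Mbl2 had its highest level, 573 CPM in WT and 478 CPM in C75S, in the most pericentral bin too, but its log2 difference of -0.06 was not called (edgeR adjusted p = 0.29), and with library totals it was, at -0.17. Masp1 was not called at -0.06, and Masp2 was called periportal at 0.15, a call lost with library totals, with DESeq2 and in thinned spots.

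**Figure D3:**
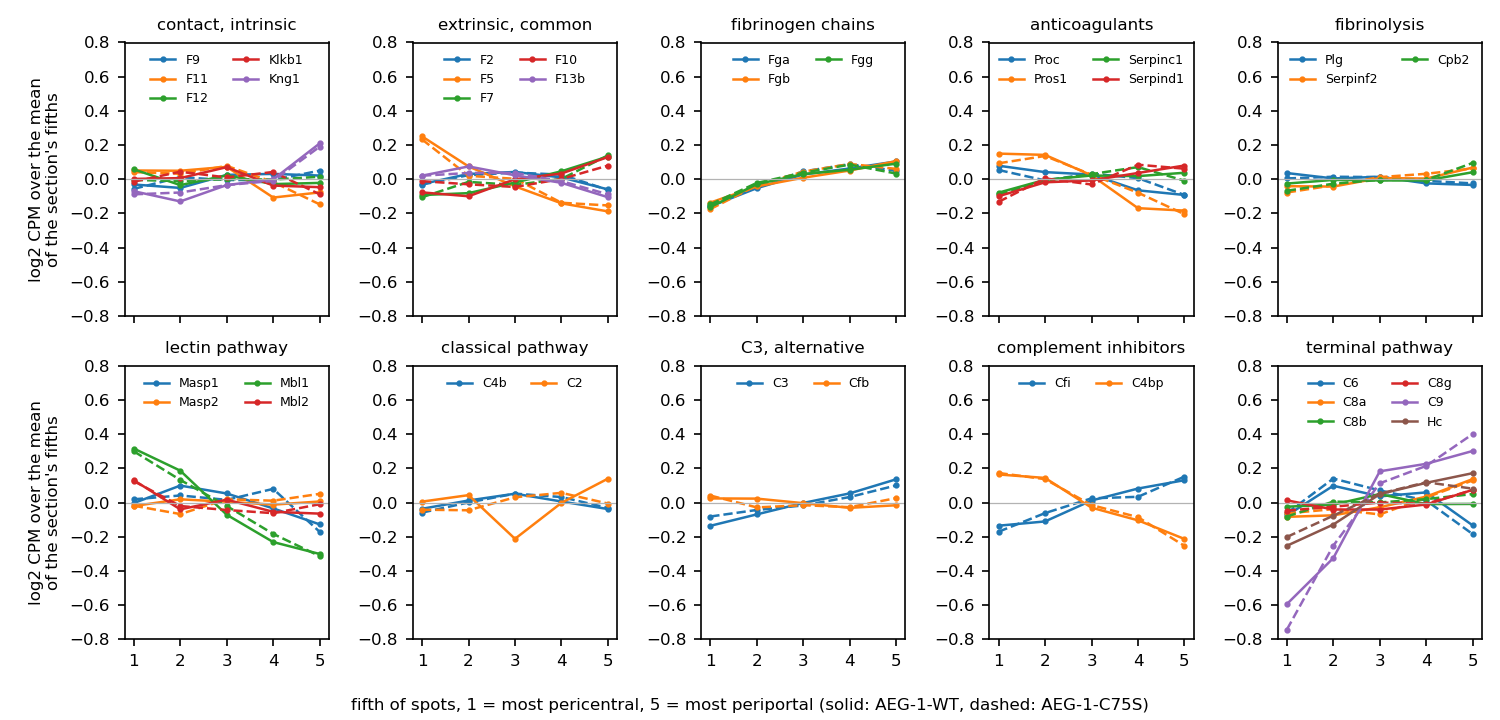
Log2 CPM over the mean of the section's bins is plotted for each gene across the 5 bins of spots, from the most pericentral (1) to the most periportal (5), in 1 panel per role, with solid lines for WT and dashed lines for C75S. C9 climbs and Mbl1 falls along the axis in both sections, and the lines of the fibrinogen chains lie on each other.

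The fibrinogen genes climbed together toward the portal side. Fga went from 6774 CPM in the most pericentral bin to 8130 CPM in the most periportal one in WT, and from 9932 to 11443 CPM in C75S. The log2 differences were 0.34 for Fga, 0.34 for Fgb and 0.32 for Fgg (edgeR adjusted p of 6.3e-16, 4.7e-16 and 1.6e-14). In WT each chain was highest in the most periportal bin, and in C75S each was highest in the bin before it. The lowest bin of fibrinogen in C75S, with 25803 CPM summed over the chains, still lay above the highest in WT, with 21780 CPM.

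Other coagulation genes divided along the axis. Kng1 went from 1033 to 1254 CPM in WT and from 1123 to 1362 CPM in C75S, a log2 difference of 0.38 (edgeR adjusted p = 1.7e-17). F7 and F10 were called periportal at 0.34 and 0.25, and so was F9 at 0.18, a call lost with library totals, with DESeq2 and in thinned spots. F5 ran the other way, from 379 to 279 CPM in WT and from 373 to 286 CPM in C75S, a log2 difference of -0.31 (edgeR adjusted p = 6.7e-10). F2, F12, F13b, F11 and Klkb1 were not called, at -0.05 to 0.07.

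Among the inhibitors, Serpind1, Serpinc1, Serpinf2 and Cpb2 were called periportal at 0.29, 0.20, 0.23 and 0.22. Pros1 was called pericentral at -0.21, with 86.9 CPM in the most pericentral and 69.0 CPM in the most periportal bin of WT and 77.8 and 63.3 CPM in C75S, and lost the call with DESeq2 and in thinned spots. Proc was not called at -0.06 and Plg was not at 0.05. With library totals, Proc, F11, F13b, Masp1 and Mbl2 were added to the pericentral calls.

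In the rest of complement, C3 was called periportal at 0.33 (edgeR adjusted p = 1.2e-15), from 7152 to 8637 CPM in WT and from 7509 to 8518 CPM in C75S. Cfi and C4bp, which work together in cutting C4b, ran opposite ways. Cfi had 135 and 163 CPM in the outer bins of WT and 117 and 147 CPM in those of C75S, a log2 difference of 0.40. C4bp had 922 and 710 CPM in WT and 880 and 655 CPM in C75S, a log2 difference of -0.30 (edgeR adjusted p = 1.6e-11). C4b was called at 0.11, a call lost with library totals, with DESeq2, in thinned spots and with the outer bins alone. Cfb and C2 were not called, at 0.07 and 0.19.

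Cholangiocyte markers summed to 30.4 CPM in the most pericentral and 262 CPM in the most periportal bin of WT, and to 37.2 and 154 CPM in C75S. Of the 24 calls, 19 were kept under every alternative except the fit without the section block. In that fit C3, C9 and Hc were the only members called.

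**Figure D4:**
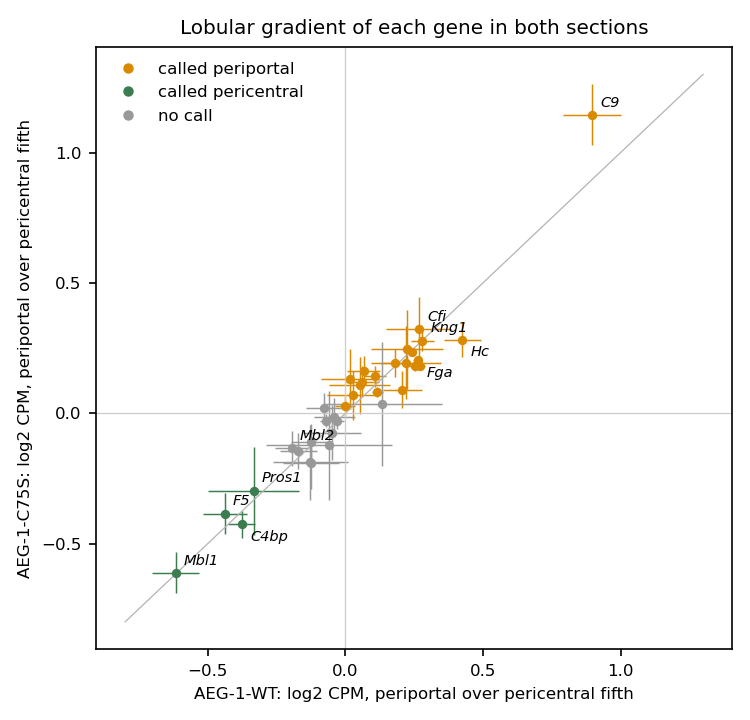
The log2 ratio of CPM in the most periportal over the most pericentral bin is plotted for each gene, WT on the horizontal axis and C75S on the vertical axis, with 95% binomial intervals for counting error, a line of equality and colours for the call of the edgeR test with TMM. C9 lies at 0.90 and 1.14 in the upper right, and Mbl1, C4bp, F5 and Pros1 lie in the lower left.

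Levels were also compared over single spots for the 13 members with a median of at least 10 UMIs per spot in both sections. Over the spots of a section, which share a library but differ in depth and in place in the lobule, Spearman's rho was highest between the fibrinogen chains. It was 0.43 in WT and 0.48 in C75S for Fga and Fgb, 0.39 and 0.47 for Fga and Fgg, and 0.38 and 0.43 for Fgb and Fgg. Within the middle bin, where the place in the lobule varies less, these were 0.16 and 0.27, 0.16 and 0.40, and 0.23 and 0.25. The highest pair there was still a pair of chains, Fgb with Fgg in WT and Fga with Fgg in C75S. Not every pair of chains stood above the other pairs. There Fga with C3 in WT (0.20) and Fga with Serpinc1 in both sections (0.19 and 0.29) were above Fga with Fgb. In C75S Fgg with C4bp (0.274) was above Fga with Fgb (0.268) and Fgb with Fgg (0.253). Fgb with Serpinc1 (0.260) was above Fgb with Fgg there too. Over whole sections Fga with C3 was at 0.36 and 0.27, and Fga with Serpinc1 at 0.29 and 0.37. Fgg with C4bp was at -0.08 and 0.01, and Fgb with Serpinc1 at 0.22 and 0.34. The median over all 78 pairs was 0.06 in each section.

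Further genes of the same pathways were examined for context, to be read against the shares of all genes: 9.66% at least 1.2-fold higher and 18.7% lower, 9.61% called periportal and 9.6% pericentral, and 6.77% and 18.4% with library totals. Of 27 other coagulation genes with at least 50 UMIs, 3 were at least 1.2-fold higher in C75S and 5 lower. Gas6, a vitamin K-dependent ligand of TAM receptors, had 104 CPM in WT and 60.3 CPM in C75S (log2 ratio -0.79, -0.86 to -0.72). F3, which encodes tissue factor, had 8.52 and 5.54 CPM (-0.62, -0.87 to -0.38), and Vwf, the gene of von Willebrand factor, 14.9 and 10.8 CPM (-0.46, -0.64 to -0.28). Among the genes with the highest ratios were the protein C receptor Procr (0.61, 0.20 to 1.02) and Plau, which encodes urokinase (0.30, -0.04 to 0.65). Along the axis 8 of the 27 were called periportal and 2 pericentral, and with library totals 4 and 8. Among those with at least 200 UMIs, Fgl2, Hgfac, the activator of hepatocyte growth factor, and F3 had the largest periportal differences at 0.72, 0.56 and 0.55. Serpine2, with 103 UMIs in WT and 58 in C75S, was called at 1.06. F3 and Serpine2 lost their calls with library totals. Plau and Thbd, which encodes thrombomodulin, were called pericentral at -1.24 and -0.74.

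Of 35 other complement genes, 12 were at least 1.2-fold higher in C75S and 2 lower, where 9.66% and 18.7% of all genes were. Cfp, which encodes properdin, had 97.1 CPM in WT and 143 CPM in C75S (0.55, 0.50 to 0.61), Itgb2, the beta chain of complement receptors, 14.1 and 19.2 CPM (0.44, 0.29 to 0.60), and C1qb, a chain of C1q, 115 and 154 CPM (0.42, 0.37 to 0.48). These genes are known from macrophages, and 5 of 6 Kupffer cell markers were at least 1.2-fold higher in the same section. One of the 12 genes, Vsig4, is itself on the Kupffer cell list. C7, another terminal component, was the lowest at 6.86 and 1.78 CPM (-1.95, -2.34 to -1.58), and all 5 portal connective tissue markers were lower in C75S too. The part of these cells in the differences was not tested. Cd59b followed at -0.64. Along the axis 10 of the 35 were called periportal and 4 pericentral, with C7 at 2.40 and Itgb2 at 0.50, against Colec12 at -0.34 and Cd59a at -0.18. With library totals these counts were 8 and 5.

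Of 23 regulators of liver genes, 6 were at least 1.2-fold higher and 5 lower. The clock output factors Dbp and Tef were the lowest, at 223 and 76.9 CPM (-1.54, -1.59 to -1.48) and 111 and 47.1 CPM (-1.23, -1.31 to -1.16), followed by the oestrogen receptor gene Esr1 (-0.47). TTATGTAA, the D-box that Dbp and Tef bind, was found in 0 of the 29 promoters, against 0.938% of all promoters. Letters this rare would mostly be absent from 29 promoters in any case, so the search cannot tell whether these factors act on the genes. Onecut1, a hepatocyte transcription factor, had 28.2 and 53.7 CPM (0.93, 0.83 to 1.03), Socs3, a feedback inhibitor of STAT3, 15.5 and 23.6 CPM (0.61, 0.46 to 0.75), and Il1r1, an interleukin-1 receptor, 44.9 and 67.0 CPM (0.58, 0.49 to 0.66). Along the axis 5 were called periportal, led by Esr1 at 0.55, Onecut1 at 0.26 and Stat3 at 0.21, and 7 pericentral, led by Socs3 at -0.78, Ghr at -0.40 and Cebpb at -0.37. With library totals, 1 (Esr1) was called periportal and 10 pericentral.

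Of 18 other acute phase genes, 5 were at least 1.2-fold higher and 3 lower. Orm3 and Orm2, paralogs that encode orosomucoids, were highest at 10.7 and 24.3 CPM (1.19, 1.03 to 1.35) and 39.1 and 87.2 CPM (1.16, 1.07 to 1.24), and Serpina3k followed at 0.30. Saa3, Lcn2 and Saa4 were lower, at -0.61 (-0.92 to -0.31), -0.45 (-0.61 to -0.29) and -0.40 (-0.44 to -0.36), so the list held genes on both sides. Along the axis 14 of the 18 were called periportal, against 9.61% of all genes and 15.3% of those with at least 3000 UMIs, with Hpx, which encodes hemopexin, at 0.94, Lcn2 at 0.87 and Orm1 at 0.46, and Saa4 alone was called pericentral at -0.37. With library totals 12 were called periportal and 1 pericentral, against 6.77% and 18.4% of all genes.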

How the data were processed

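RNA was read on spots of the AEG-1-WT and the AEG-1-C75S liver section with probes (10x Visium, fixed tissue). The UMI counts deposited by the authors came from Space Ranger 2.0.1 against mm10, per the labels, and the tables hold raw counts without normalization. Seurat 4.3.0 is also named there and bears on no value here. The tables held 0 columns of other samples. For 11 repeated symbols the first entry was taken.

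Spots above 50000 UMIs were left out, 7 of 2316 in AEG-1-WT and 4 of 2167 in AEG-1-C75S. Ratios between sections carry exact binomial 95% intervals, and no test was made between the genotypes. The lobule axis was tested with edgeR 4.0.16 in R 4.3.3 on 10 UMI sums (TMM, robust quasi-likelihood fit, section as a block) over 12004 genes with at least 50 UMIs, with Benjamini-Hochberg adjustment. DESeq2 1.42.0 was an alternative. Sums and figures used python 3.11.15, numpy 2.4.6, scipy 1.17.1, pandas 2.3.3 and matplotlib 3.10.9. Scripts for the tests were tested on simulated data.

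All members were named. Of the other lists, genes with at least 200 UMIs were named where they were among the 3 highest or 3 lowest ratios of their list, or the 3 most periportal or pericentral calls, and some genes so chosen are not reported here. The members and lists were chosen with earlier results of these data known. The alternatives were no spot filter, other scalings, equal weight per spot, spots matched on depth in 10 bins or thinned to 5000 UMIs, no portal tract spots, minimums of 10 and 200 UMIs, other axis genes, fewer bins, the outer bins alone, a linear trend, no section block and each section alone. A background of genes with at least 3000 UMIs was chosen after seeing the data.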

Additional observations from a re-analysis of the deposited data

How the results depend on the processing

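With 1 section per genotype no alternative gives a spread between animals, and counting intervals leave out tissue sampling, fixation and the animal. The directions of Fga, Fgb, Fgg, F7, C8a, C8b and C9 between the sections were kept in all 8 alternatives that recompute a ratio, at 0.44 to 0.60 for Fga and -0.55 to -0.42 for F7. The number of members at least 1.2-fold higher was 5 with TMM factors, with centering on the median gene and with totals without the 20 most abundant genes, in place of 3. The number lower was 2 with TMM factors, in place of 4. It was 3 with centering on the median gene and with totals without the 20 most abundant genes. The share of all genes past 1.2-fold was not computed with these scalings, so these counts cannot be set against the shares given for UMI totals. At 1.5-fold both numbers were 0, but with TMM factors Fga passed that limit at a log2 ratio of 0.60. With equal weight per spot 7 counted as lower. That setting summed the shares of single spots without dividing by spot number, 2309 in WT and 2163 in C75S. This lowers each of its ratios, the low end for Fga among them. Its count and sign changes therefore cannot be read as an effect of weighting, which was not tested on its own. Along the axis, 9 members were called pericentral with library totals, in place of 4, and without the section block 3 were called periportal and 0 pericentral. The share of all genes called periportal was 4.49% with DESeq2, 4.88% in thinned spots and 1.52% without the block, and the share called pericentral was 5.04%, 4.87% and 1.53%, and 18.4% with library totals. Beyond the missing division in the equal-weight setting, the cause of these moves was not tested. Library totals lowered the axis differences by 0.10 (median over genes). No called value changed sign in any alternative. Axis values that were not called changed sign in 16 combinations of a gene and an alternative. The section ratios of 15 members within 1.2-fold also changed sign (8 with TMM factors, 8 with median centering, 7 with equal weight per spot, 6 without the 20 most abundant genes and 1 in matched spots). F2, F12, Plg and Cfb were called periportal without portal tract spots, at 0.13, 0.12, 0.09 and 0.12. No paired analysis was possible because each genotype had 1 section.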
